A study of Mus musculus with 4 samples.

Results

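The 10 genes described here, Defa2, Defa3, Defa5, Defa17, Defa20, Defa21, Defa22, Defa23, Defa24 and Defa26, are alpha-defensins of Paneth cells, taken by symbol from the 24444 genes of the table. They were selected on values measured in these 4 libraries, the contrast between shppp2r1a and scr included, so their levels are given as a description, without a test. RNA sequencing was performed on tumours of CT26, a BALB/c mouse colon carcinoma line, collected at a volume of about 70 mm3. In 3 libraries, CT26-shppp2r1a 1 to 3, the cells carried a short hairpin RNA against Ppp2r1a, which encodes the A alpha scaffold of the phosphatase PP2A. In 1 library, CT26-scr, they carried a scrambled hairpin. All 4 libraries carry the same labels for line, strain and harvest volume, cells were selected with puromycin after transfection, and according to the methods of the study such cells were injected under the skin of the flank. The labels do not say whether the 3 libraries came from separate mice. They are described as separate tumours, so their spread is that between tumours, and with 1 control the smallest exact permutation p that this design allows is 0.25.

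Alpha-defensins, called cryptdins in the mouse, are small cationic peptides that kill bacteria by disrupting their membranes. Paneth cells at the base of small intestinal crypts store them in granules as inactive precursors, which the metalloproteinase MMP7 cleaves in the mouse, and release them into the crypt lumen. The genes lie in a cluster of very similar copies whose number and sequence differ between inbred mouse strains, and the normal mouse colon has no Paneth cells.

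In the GRCm38 annotation (GENCODE M21) all 10 genes lay on the plus strand of chromosome 8, from Defa21 (chr8:21025545-21026516) to Defa24 (chr8:21734494-21735471), with starts spread over 708.9 kb. Each reference model had 2 exons and a coding sequence of 279 or 285 bases. The build behind the deposited table is not certain, so positions and sequences are those of the reference, which comes from C57BL/6J and not from the labelled strain. Coding sequences were compared in all 45 pairs, and members that shared at least 88% of their bases were linked, a limit set after the values had been seen. This gave Defa2, Defa20, Defa21 and Defa22 as one sequence group (at least 88.8% identity within it) and Defa3, Defa17, Defa23, Defa24 and Defa26 as another (at least 89.2%). Defa5 stood alone, and no pair from different groups exceeded 85.3%. The 2 closest pairs among the members were Defa3 with Defa17, whose coding sequences were identical, and Defa2 with Defa20, which differed in 1 column of 285.

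**Figure D1:**
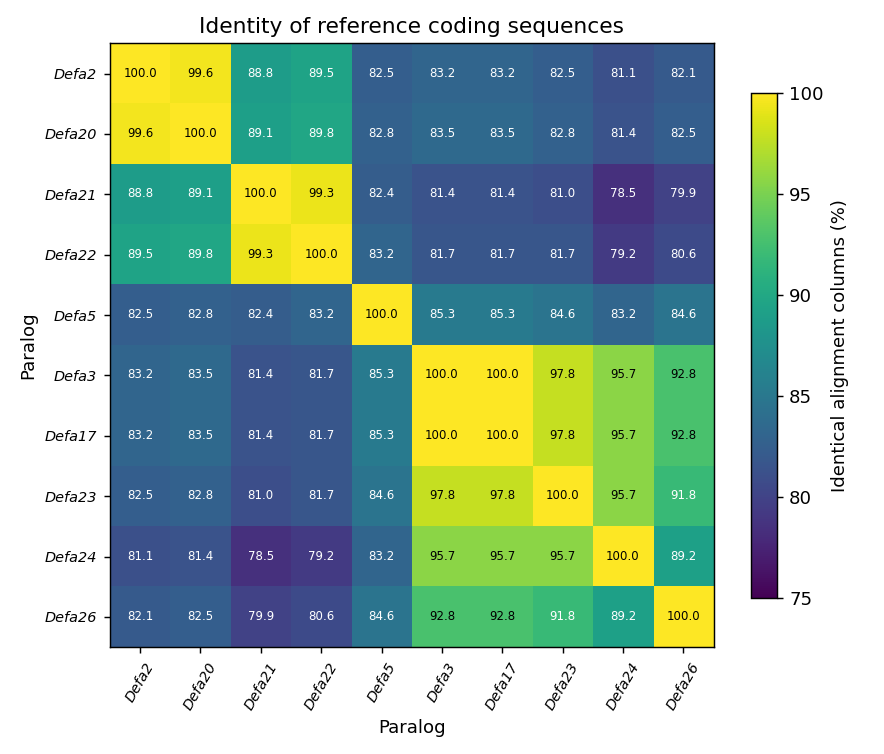
Identity of the reference coding sequences of the 10 members, as the percentage of identical columns in each pairwise alignment, with both axes listing the paralogs. Defa2, Defa20, Defa21 and Defa22 form a block of 88.8% or more and Defa3, Defa17, Defa23, Defa24 and Defa26 a block of 89.2% or more.

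The coding part of exon 2, which encodes most of the mature peptide, is shown for 6 members because it shows how the sequence groups differ. Capitals mark bases that differ from Defa24 in the alignment.
Defa24 (chr8:21735268-21735374): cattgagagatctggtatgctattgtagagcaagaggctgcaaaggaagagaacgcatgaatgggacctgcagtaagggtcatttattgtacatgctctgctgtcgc
Defa23 (chr8:21055812-21055918): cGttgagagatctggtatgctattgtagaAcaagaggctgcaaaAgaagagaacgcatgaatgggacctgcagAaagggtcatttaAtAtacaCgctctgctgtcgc
Defa17 (chr8:21656532-21656638): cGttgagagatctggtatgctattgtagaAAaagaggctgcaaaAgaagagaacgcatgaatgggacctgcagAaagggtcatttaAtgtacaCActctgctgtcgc
Defa5 (chr8:21298172-21298278): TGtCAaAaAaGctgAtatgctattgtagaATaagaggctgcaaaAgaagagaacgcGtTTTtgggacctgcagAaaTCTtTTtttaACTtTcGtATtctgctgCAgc
Defa22 (chr8:21163046-21163152): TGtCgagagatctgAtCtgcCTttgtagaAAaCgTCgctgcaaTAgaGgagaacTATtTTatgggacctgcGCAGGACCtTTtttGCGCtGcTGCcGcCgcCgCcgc
Defa2 (chr8:21379287-21379399): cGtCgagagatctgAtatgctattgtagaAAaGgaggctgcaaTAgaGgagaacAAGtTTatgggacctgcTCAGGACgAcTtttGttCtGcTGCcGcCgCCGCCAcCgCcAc
Defa23 differed from Defa24 in 7 columns and Defa17 in 8, while Defa5 differed in 30, Defa22 in 42 and Defa2 in 40, of which 6 were inserted bases. Over this stretch Defa3 was identical to Defa17, and Defa20 to Defa2.

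Upstream sequences were available in the RefSeq promoter table (GRCm38.p6) for 5 members, Defa2, Defa20, Defa21, Defa22 and Defa23. The others were Defa3, Defa5, Defa17, Defa24 and Defa26. The 250 bases before the start are shown for one member of each group, with capitals marking CTTTGNT, the core recognised by TCF factors of the Wnt pathway, read on both strands.
Defa22 (chr8:21162027-21162276): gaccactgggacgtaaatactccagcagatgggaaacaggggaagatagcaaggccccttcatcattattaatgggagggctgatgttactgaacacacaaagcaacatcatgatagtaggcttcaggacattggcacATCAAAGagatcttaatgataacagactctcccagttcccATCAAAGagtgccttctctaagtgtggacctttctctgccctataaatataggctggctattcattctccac
Defa23 (chr8:21054790-21055039): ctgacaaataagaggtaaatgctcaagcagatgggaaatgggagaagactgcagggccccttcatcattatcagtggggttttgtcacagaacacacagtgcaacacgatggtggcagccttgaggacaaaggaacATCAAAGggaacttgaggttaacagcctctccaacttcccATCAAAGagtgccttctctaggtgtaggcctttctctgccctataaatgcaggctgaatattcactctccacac
The upstream sequences of Defa21 and Defa22 were identical, as were those of Defa2 and Defa20, and these 4 shared at least 98.0% of their bases. Defa23 shared 78.0% with each of them. All 5 windows held 2 matches to CTTTGNT, but 4 of them are near-identical copies and do not count as separate sequences. Of 32851 promoter windows of the mouse reference, 18.6% held 1 match or more. Those windows also ran past the start, and the share with 2 matches was not counted. A match in these letters is a description of the window and was not tied to the levels.

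Across the 4 libraries total expected counts lay between 24726440 and 28950004. Ppp2r1a, the targeted gene, was at 22.3 to 40.2 TPM (a measure of transcript abundance scaled to gene length and to an equal total in every library) in shppp2r1a libraries and 75.1 TPM in scr. The epithelial markers fixed for the check were all detected (Epcam at 1651 to 1947 TPM in shppp2r1a libraries and 1900 TPM in scr). Transcripts of mature bowel were abundant in libraries labelled as CT26 tumours, with Fabp2, a fatty acid carrier of small bowel enterocytes, at 8196 to 22942 TPM in shppp2r1a libraries and 22531 TPM in scr. All 10 genes of the Paneth granule list were detected in every library, and their summed level was 2605 to 5841 TPM in shppp2r1a libraries and 2544 TPM in scr. Where these transcripts came from was not tested. In bulk RNA, fewer Paneth cells and less defensin RNA per Paneth cell cannot be told apart.

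The 10 members together made up 1.01%, 3.34% and 1.25% of all TPM in shppp2r1a libraries 1, 2 and 3, and 1.29% in the scr library. Their summed level was 10066, 33405 and 12489 TPM in shppp2r1a libraries, against 12863 TPM in scr. The single control thus lay inside the range of the 3 knockdown libraries, and the high sum was that of library 2. The ratio of the shppp2r1a mean (18650 ± 12800 TPM, SD, n = 3) to scr was 1.45, and it was 0.877 without library 2. All 10 members passed the filter on low counts.

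What differed between scr and the shppp2r1a libraries was which copies made up this sum. The TPM of 6 members was above scr in all 3 shppp2r1a libraries (Defa2, Defa3, Defa5, Defa20, Defa21 and Defa22), a pattern shown by 43.6% of the 15246 genes that passed the filter. For Defa17 and Defa23 all 3 shppp2r1a libraries were below scr, as for 15.9% of the genes that passed the filter. Defa24 and Defa26 overlapped. Since the members were chosen on this contrast, nothing is read from these counts against those shares.

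**Figure D2:**
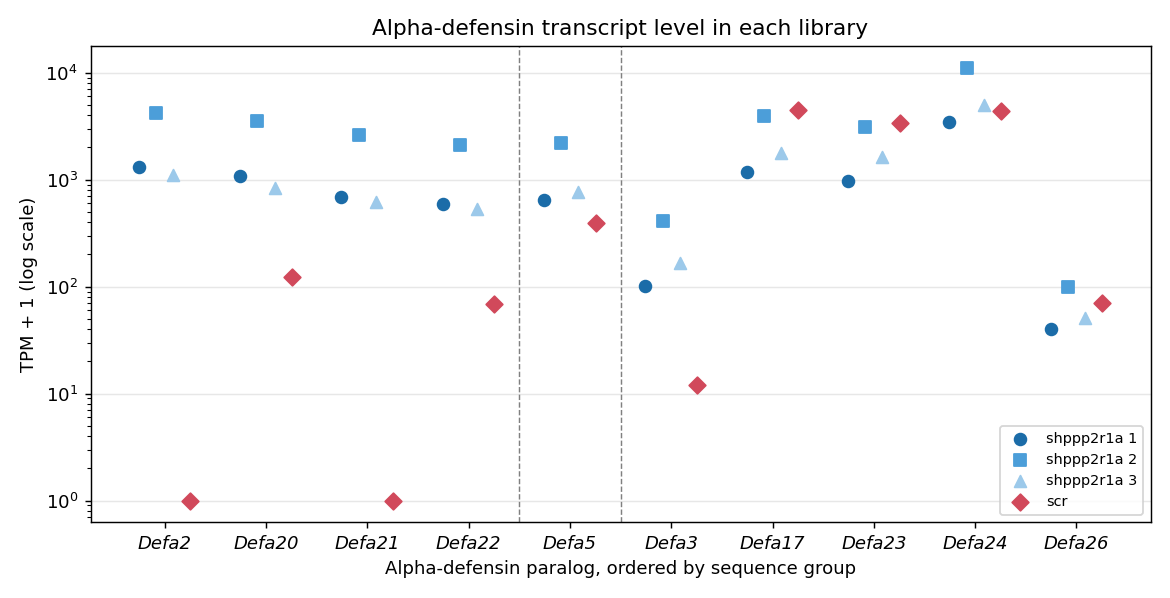
Level of each member in each library, as TPM + 1 on a logarithmic axis, with the 3 shppp2r1a libraries as blue symbols to the left of the scr library as a red diamond, and dashed lines between sequence groups. The scr library lies below all shppp2r1a libraries for Defa2, Defa20, Defa21, Defa22, Defa5 and Defa3, above them for Defa17 and Defa23, and between them for Defa24 and Defa26.

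The group of Defa2, Defa20, Defa21 and Defa22 was abundant in the shppp2r1a libraries and almost missing from scr. Its summed level was 3665, 12450 and 3084 TPM in shppp2r1a libraries, against 190.3 TPM in scr. The shppp2r1a mean was 33.6 times the scr level, and the libraries taken singly were 16.2 to 65.4 times it.

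Defa2 was at 1313, 4208 and 1108 TPM in shppp2r1a libraries and at 0 in scr. Defa20, its near-identical copy, was at 1070, 3525 and 832 TPM in shppp2r1a libraries, against 123 TPM in scr. No 50-base stretch of either reference transcript was unique to it, since the remaining stretches recur in each other and in the predicted copies Gm21002 and Gm15308. The 0 of Defa2 is therefore best read with its pair, and Defa2 and Defa20 together were at 2382, 7733 and 1940 TPM in shppp2r1a libraries, against 123.1 TPM in scr, a ratio of the means of 32.7.

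Defa21 was at 690 TPM, 2604 TPM and 615 TPM in shppp2r1a libraries and at 0 in scr. Defa22, which differs from it in 2 columns of the coding sequence, was at 592, 2115 and 528 TPM in shppp2r1a libraries, against 67.3 TPM in scr. This pair is better resolved, with 27.1% of the 50-base stretches of Defa21 and 25.1% of those of Defa22 unique to the gene in the reference. Together they were at 1283, 4719 and 1144 TPM in shppp2r1a libraries, against 67.25 TPM in scr, a ratio of 35.4. Both pairs of near-identical copies thus gave about the same ratio, however reads were split within each pair. Reads of Defa2 and Defa20 can also be shared with Gm21002 and Gm15308, and with these rows added the ratio was 38.2.

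The group of Defa3, Defa17, Defa23, Defa24 and Defa26 was present in all 4 libraries. Its summed level was 5753, 18750 and 8635 TPM in shppp2r1a libraries, against 12280 TPM in scr, which lay between them. Without library 2 the ratio of the shppp2r1a mean to scr was 0.586, against 0.899 with all 3, and without library 1 it was 1.11.

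Defa24 was the most abundant member in each shppp2r1a library, at 3464, 11150 and 5025 TPM, against 4352 TPM in scr, which lay within their range. It is also the member whose reads are least shared, with 71.9% of its 50-base stretches unique. Defa26, the lowest member in each shppp2r1a library, was at 39.2, 98.4 and 49.5 TPM there and 69.8 TPM in scr, again within range, and 59.8% of its stretches were unique. The log2 ratios of these 2 members, 0.59 and -0.16, changed sign when 1 library was left out (library 2 for Defa24, giving -0.04, and library 1 for Defa26, giving 0.08).

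Defa17 was at 1179, 3958 and 1763 TPM in shppp2r1a libraries, against 4435 TPM in scr. Defa23 was at 971, 3137 and 1631 TPM in shppp2r1a libraries, against 3416 TPM in scr. The shppp2r1a means were 0.519 times the scr level for Defa17 and 0.56 times for Defa23, but library 2 came within 0.892 and 0.918 times it. Defa3 went the other way, at 99.8, 410 and 165 TPM in shppp2r1a libraries, against 11.0 TPM in scr. Since Defa3 shares 88.6% of its 50-base stretches with Defa17, the pair is better summed, and Defa3 and Defa17 together were at 1279, 4368 and 1929 TPM in shppp2r1a libraries, against 4446 TPM in scr. This sum was lower in all 3 shppp2r1a libraries. Defa23 has an identical coding sequence in Defa-rs7, and with that copy added it was at 1032, 3186 and 1678 TPM in shppp2r1a libraries, against 3510 TPM in scr.

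Defa5, alone in its sequence among the members, was at 647, 2200 and 770 TPM in shppp2r1a libraries, against 388 TPM in scr. All 3 shppp2r1a libraries were above scr, by 1.67 to 5.67 times. In the reference 0.306% of its 50-base stretches were unique, and 78.6% recurred in the predicted copy Gm15315.

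The shares of the sum show the same split with the size of the pool removed. Defa24 held 34.4%, 33.4% and 40.2% of the summed TPM in shppp2r1a libraries and 33.8% in scr. Defa17 held 11.7%, 11.8% and 14.1% in shppp2r1a libraries and 34.5% in scr, level with Defa24. Defa23 held 9.65%, 9.39% and 13.1% in shppp2r1a libraries and 26.6% in scr. With Defa24 these copies made up 55.8%, 54.6% and 67.4% of the sum in shppp2r1a libraries, against 94.9% in scr. The group of Defa2, Defa20, Defa21 and Defa22 took 36.4%, 37.3% and 24.7% in shppp2r1a libraries, against 1.48% in scr.

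Among single members of that group, Defa2 held 13.0%, 12.6% and 8.87% in shppp2r1a libraries and 0% in scr. Defa20 held 10.6%, 10.6% and 6.67% in shppp2r1a libraries and 0.957% in scr. Defa21 held 6.86%, 7.79% and 4.93% in shppp2r1a libraries and 0% in scr. These 3 copies were each lower in library 3 than in libraries 1 and 2, as was Defa22, which held 5.88%, 6.33% and 4.23% in shppp2r1a libraries and 0.523% in scr. Defa5 held 6.43%, 6.58% and 6.17% in shppp2r1a libraries and 3.02% in scr. The small remainder was Defa3, with 0.991%, 1.23% and 1.33% in shppp2r1a libraries and 0.0854% in scr, and Defa26, with 0.389%, 0.295% and 0.397% in shppp2r1a libraries and 0.543% in scr.

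**Figure D3:**
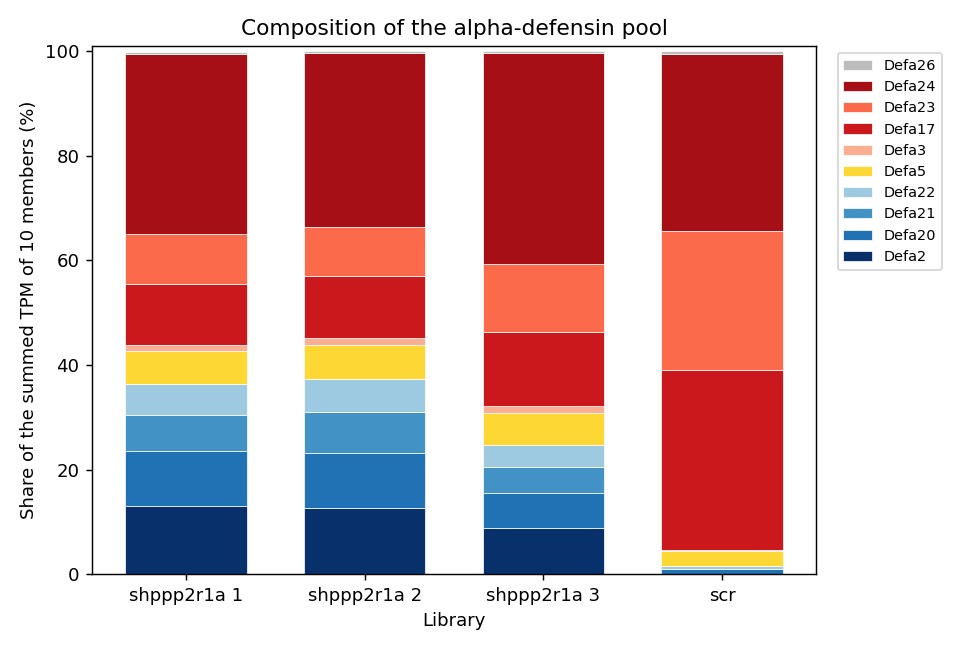
Share of the summed TPM of the 10 members held by each paralog, in percent, with 1 stacked bar per library, the 3 shppp2r1a libraries to the left of scr. The blue layers (Defa2, Defa20, Defa21 and Defa22) take 24.7% to 37.3% of the bar in shppp2r1a libraries and 1.48% in scr, where Defa17, Defa23 and Defa24 fill 94.9%.

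Counting error was small beside these differences. As a share of the family's expected counts in scr, Defa17 held 34.0% (exact 95% Clopper-Pearson interval 33.6% to 34.3%) and Defa24 34.2% (33.8% to 34.5%), so the order of these 2 neighbours was not resolved. Defa22, at 0.528% (0.477% to 0.583%), and Defa26, at 0.495% (0.445% to 0.548%), were not resolved from each other either. For Defa2 and Defa21, with 0 counts among 73335, the upper end of the same interval was 0.00503% each. In the shppp2r1a libraries Defa24 came first in each library. Defa2 came second in libraries 1 and 2, and Defa17 in library 3. The means of Defa17, Defa2, Defa23, Defa20, Defa21, Defa5 and Defa22 lay within 1 SD of their neighbours in that order. That SD includes the differences in pool size between libraries, so it does not measure how firm the order is. Within every shppp2r1a library Defa17 was above Defa23, Defa5 above Defa22, and Defa2 above Defa20, Defa21 and Defa22 in turn. The order of Defa17 and Defa2, Defa2 and Defa23, Defa23 and Defa20, and Defa21 and Defa5 changed between libraries. These intervals cover counting error only, and not the way reads were divided between copies.

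The deposited expected counts show which values that division touched, but not how many reads it moved. Of the 40 member values, 37 were not whole numbers (by more than 0.005). Over all genes of the table the share was 5.3% to 5.89% per library. That share includes genes at 0, which are always whole, so it is not a like comparison for expressed genes. All 10 members had a non-whole count in at least 1 library, and 7 had one in all 4. The exceptions were the scr values of Defa2 and Defa21, which were 0, and of Defa22, which was 387. Defa22 in scr was thus the only member value above 0 that carried no fraction. Defa2, for example, had 6861.35, 24192.93 and 6181.97 expected counts in shppp2r1a libraries, and Defa20 had 5605.90, 20325.03 and 4659.75 in shppp2r1a libraries, against 720.94 in scr.

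The shppp2r1a libraries also differed among themselves by sequence group. Library 2 was 2.51 to 4.11 times library 1 for every member. Library 3 was 0.778 to 0.892 times library 1 for Defa2, Defa20, Defa21 and Defa22, while it was 1.26 to 1.68 times library 1 for Defa3, Defa17, Defa23, Defa24 and Defa26, and 1.19 times for Defa5. In library 3 the composition was thus nearer to that of scr than in libraries 1 and 2, with 24.7% of the sum in the group that was at 1.48% in scr.

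Lysozyme 1 (Lyz1), a Paneth granule enzyme that cleaves bacterial cell walls, allows the defensins to be set against another product of the same granules. Lyz1 was at 1084, 2802 and 1358 TPM in shppp2r1a libraries, against 1080 TPM in scr. The summed members were 9.29, 11.9 and 9.2 times Lyz1 in shppp2r1a libraries and 11.9 times in scr. On this scale the sum of library 2 was level with that of scr. The Defa2, Defa20, Defa21 and Defa22 group was 3.38, 4.44 and 2.27 times Lyz1 in shppp2r1a libraries, against 0.176 times in scr. The Defa3, Defa17, Defa23, Defa24 and Defa26 group was 5.31, 6.69 and 6.36 times Lyz1 in shppp2r1a libraries, against 11.4 times in scr. Per Lyz1 the shppp2r1a libraries therefore no longer overlapped scr for this group. Defa24 was nearest to overlap, at 3.2, 3.98 and 3.7 times Lyz1 in shppp2r1a libraries and 4.03 times in scr.

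**Figure D4:**
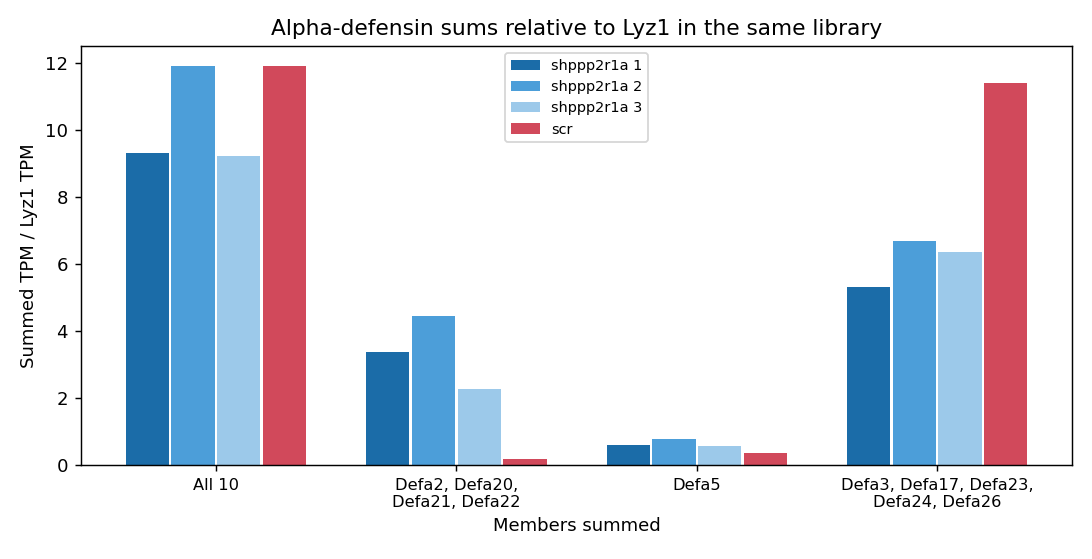
Summed TPM of the members divided by the TPM of Lyz1 in the same library, with the 3 shppp2r1a libraries in blue to the left of scr in red, for all 10 members and for each sequence group. The total is 9.2 to 11.9 times Lyz1 in shppp2r1a libraries and 11.9 times in scr, while the Defa2, Defa20, Defa21 and Defa22 sum is 2.27 to 4.44 times Lyz1 in shppp2r1a libraries and 0.176 times in scr.

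The table held 22 further alpha-defensin rows, of which 4 (Defa4, Defa6, Defa-ps12 and Defa-ps13) were at 0 in all libraries and 18 had counts. Symbols of 8 of the rows begin with Defa. Among these, Defa-rs7 was at 60.7, 49.0 and 47.3 TPM in shppp2r1a libraries and 93.5 TPM in scr, and Defa-ps1 stayed at or below 17.8 TPM. The rows that carry predicted gene symbols were looked at after their values had been seen. Added to the members, all alpha-defensin rows summed to 13360, 44998 and 16676 TPM in shppp2r1a libraries, against 15889 TPM in scr.

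Among the predicted genes, Gm21002 and Gm15308 fell into the sequence group of Defa2. Gm21002 was at 187, 1015 and 146 TPM in shppp2r1a libraries and Gm15308 at 73.4, 591 and 34.6 TPM, and both were at 0 in scr. With them the group summed to 3926, 14060 and 3264 TPM in shppp2r1a libraries, against 190.3 TPM in scr. Gm15284, which grouped with Defa23, was at 818, 2698 and 1234 TPM in shppp2r1a libraries and 1909 TPM in scr, within their range as Defa24 was.

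Among the relatives of Defa5, Gm21498 was at 519, 1918 and 850 TPM in shppp2r1a libraries and 5.34 TPM in scr, and Gm14850 at 317, 751 and 293 TPM in shppp2r1a libraries and 2.79 TPM in scr. Gm10104 showed the opposite, at 12.2, 60.9 and 12.8 TPM in shppp2r1a libraries and 353 TPM in scr. Summed with Defa5, this sequence group was at 1526, 5056 and 1963 TPM in shppp2r1a libraries, against 771.7 TPM in scr. Gm7849, from a further sequence group, was at 661, 2336 and 744 TPM in shppp2r1a libraries and 0 in scr.

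Along the chromosome the sequence groups were interleaved. Defa21, at 0 in scr, lies 29.5 kb before Defa23, which was higher in scr than in any shppp2r1a library. Defa3 and Defa5 lie between Defa22 and Defa2, and Defa17 and Defa24 follow Defa20 at 630.2 and 708.9 kb from Defa21. The members that were low in scr thus did not form a single block in the reference order.

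**Figure D5:**
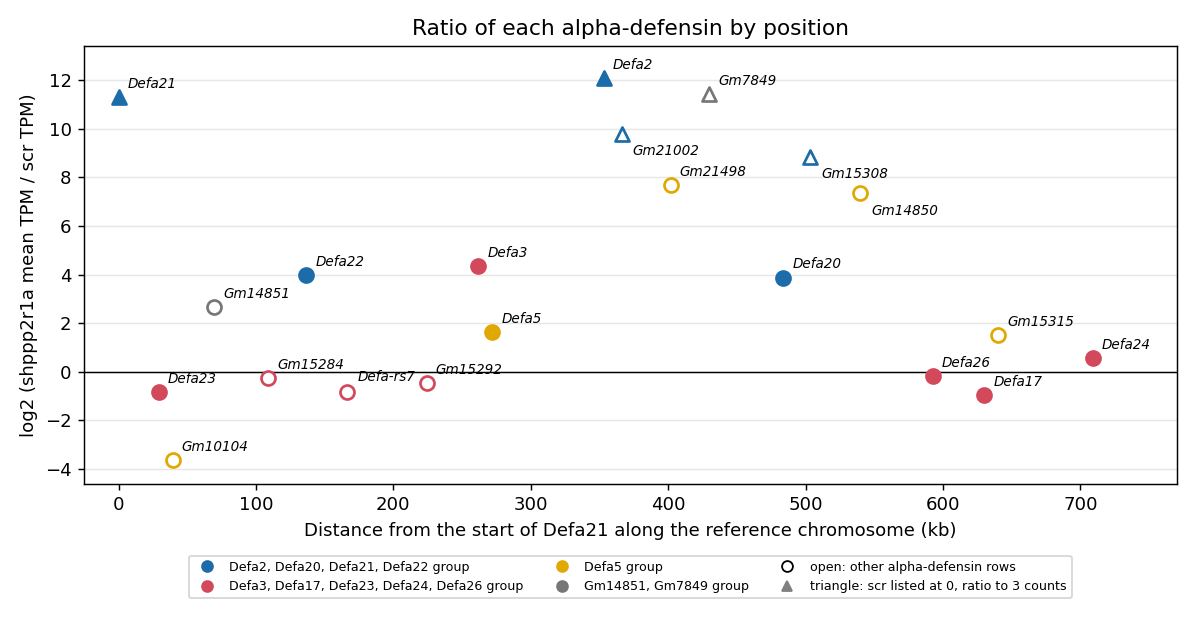
The log2 ratio of the shppp2r1a mean TPM to scr TPM against distance in kb from the start of Defa21, for the 10 members (filled) and 11 other alpha-defensin rows (open), coloured by sequence group, with triangles where scr was listed at 0 and the ratio was taken to a floor of 3 counts. Blue symbols, the group of Defa2, Defa20, Defa21 and Defa22, lie at 3.88 or above, and red symbols of the other main group lie between and beyond them, with Defa3 at 4.36 and Defa17 at -0.95.

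Outside the family the other genes of Paneth cells were compared in a fit over all 15246 genes. The quasi-likelihood test of edgeR with Benjamini-Hochberg adjustment called 0 genes (0%), with 558 at an unadjusted p under 0.05, while DESeq2 called 178 of the 13768 genes to which it gave an adjusted p (1.29%). Of the 10 granule genes, edgeR called 0, with 0 at an unadjusted p under 0.05, and DESeq2 called 1. The median log2 fold change was 0.25 for the list and 0.06 for all genes tested. Of the 16 genes that specify Paneth cells or serve their niche, edgeR and DESeq2 called 0, with 0 at an unadjusted p under 0.05, and the median was again 0.25. Of these 26 genes edgeR called 4 without library 3 (Mmp7, Pla2g2a, Ephb3 and the potassium channel gene Kcnn4, named after its value was seen), among 1111 genes in all, and 1 without library 2 (Pla2g2a), among 161.

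Itln1 (intelectin 1, a lectin for microbial glycans) was at 326, 959 and 441 TPM in shppp2r1a libraries and 458 TPM in scr. Mptx2, a mucosal pentraxin, was at 222, 603 and 278 TPM in shppp2r1a libraries and 228 TPM in scr. In both, library 2 was the highest and library 1 the lowest, as in the summed defensins. Ang4, an antimicrobial ribonuclease, did not, at 915, 336 and 122 TPM in shppp2r1a libraries and 139 TPM in scr. Mmp7, the protease that activates mouse alpha-defensins, was at 80.7, 76.3 and 31.2 TPM in shppp2r1a libraries and 22.5 TPM in scr, with a log2 fold change of 1.14 ± 0.52 (SE) and an adjusted p of 0.782 in edgeR (0.0484 without library 3).

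Pla2g2a, a secreted phospholipase that kills Gram-positive bacteria and is inactivated by mutation in C57BL/6 mice, was at 140, 39.3 and 6.21 TPM in shppp2r1a libraries and 0.90 TPM in scr. Its log2 fold change was 5.63 ± 2.11 (SE), with an adjusted p of 0.782 in edgeR and 0.0038 in DESeq2, and in edgeR it was 1.78e-05 without library 2 and 0.00114 without library 3. The lowest fitted values among granule genes were those of the lipase Pnliprp2 (log2 fold change -0.71, edgeR adjusted p = 0.782) and the colipase Clps (-0.62, adjusted p = 0.793). In the niche list the largest rises were those of Ephb3 (2.20), a receptor that positions Paneth cells, and Nod2 (1.95), a sensor of bacterial cell walls. The largest falls were those of the growth factor Egf (-0.91), which rested on only 5 to 17 counts per library, and the Notch ligand Dll4 (-0.85). Each of these genes had an edgeR adjusted p of 0.782. For Ephb3 it was 0.017 without library 3.

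By the distance between centred log2(TPM + 1) profiles over the 4 libraries, the 5 genes most like the family sum were Fam151a (distance 0.153), Itln1 (0.251), Mptx2 (0.309), Lyz1 (0.367) and Naaladl1 (0.389). Fam151a was at 66.7, 240 and 95.3 TPM in shppp2r1a libraries and 87.3 TPM in scr, and Naaladl1, a peptidase, at 180, 631 and 283 TPM in shppp2r1a libraries and 321 TPM in scr. With 4 points, such likeness is a description.

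For several markers of bowel segment the scr level also lay outside the range of the shppp2r1a libraries. The same held for H2-Eb1, Pla2g2a and Nnt among the strain genes. EdgeR called none of these genes. DESeq2 called Fabp6, Cybrd1, Car1, H2-Eb1 and Pla2g2a, but not Slc10a2, Apoa4 or Nnt. Fabp6, the bile acid carrier of ileal enterocytes, was at 2.44, 5.13 and 0.57 TPM in shppp2r1a libraries and 3435 TPM in scr. Slc10a2, the ileal bile acid transporter, was at 9.33, 4.34 and 1.25 TPM in shppp2r1a libraries and 12.5 TPM in scr. Cybrd1, a ferric reductase of the duodenum, was at 0.58, 1.11 and 1.79 TPM in shppp2r1a libraries and 45.5 TPM in scr. Apoa4, an apolipoprotein of small bowel enterocytes, was at 5780, 11402 and 32945 TPM in shppp2r1a libraries and 35720 TPM in scr. Markers of the duodenum and of the ileum were thus both higher in scr than in any shppp2r1a library.

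The large bowel genes did not share one order over the libraries. Car1, a carbonic anhydrase of the colon, was at 1439, 418 and 4.76 TPM in shppp2r1a libraries and 0 in scr. Aqp8, a colonic water channel, was at 245, 139 and 29.4 TPM in shppp2r1a libraries and 54.2 TPM in scr. Of the others on the list, named after their values were seen, Hoxb13 was at 35.1, 36.2 and 1.57 TPM in shppp2r1a libraries and 4.04 TPM in scr, and Slc37a2 at 2.12, 3.09 and 1.95 TPM in shppp2r1a libraries and 5.54 TPM in scr. The summed level of the 10 small bowel enterocyte genes was 17790 to 75350 TPM in shppp2r1a libraries and 82920 TPM in scr, and that of the 6 large bowel genes 39.5 to 1743 TPM in shppp2r1a libraries and 65.3 TPM in scr. No gene of either list was at 0 in all libraries.

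Of the genes that differ in sequence or activity between strains, H2-Eb1, a class II histocompatibility chain, was at 298, 165 and 73.4 TPM in shppp2r1a libraries and 2.37 TPM in scr. H2-Ea-ps, the row of the class II E alpha chain, which BALB/c mice express and C57BL/6 mice do not, was at 3.52, 3.80 and 0.95 TPM in shppp2r1a libraries and 2.98 TPM in scr. Nnt, a mitochondrial transhydrogenase, was at 7.20, 10.5 and 10.8 TPM in shppp2r1a libraries and 12.5 TPM in scr. The scr level of H2-Ea-ps thus lay within the range of the shppp2r1a libraries, and that of Nnt above it. The part that bowel segment, strain or class II expressing cells may have in the defensin composition was not tested, and with 1 control library none of them can be told apart from the hairpin.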

How the data were processed

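RNA sequencing of 3 CT26-shppp2r1a tumour libraries and 1 CT26-scr library was analysed from 1 gene table. The authors deposited expected counts (estimated counts, not whole where reads are shared between genes), TPM and FPKM (fragments scaled to gene length and library total). The authors' deposited fold (ratio of knockdown over control) and posterior probability of equal expression, given in place of a p-value, were not used. Bowtie 0.12.2 and the builds mm8 and mm10 appear, with no roles, in the processing notes of the submitters. Counter, annotation and read length: not given in the sources used here. Columns were matched to libraries by the sample descriptions, with 0 left over.

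Expected counts were rounded for testing. The filter was filterByExpr at a minimum of 10 counts (15246 of 24444 genes kept). Libraries were scaled by TMM and tested two-sided by the quasi-likelihood test of edgeR 4.0.16 in R 4.3.3. The fit had 2 residual degrees of freedom, from the shppp2r1a libraries alone. It was also run on simulated counts whose spread was set and not taken from these libraries. That run therefore does not show how the test performed here. The threshold was an adjusted p of 0.05. Alternatives were RLE factors, library size alone, no filter, DESeq2 1.42.0, limma 3.58.1 on log2(FPKM + 1) and each shppp2r1a library left out, where the spread came from the remaining shppp2r1a libraries. Library pairs differed beyond sampling noise (chi-square per degree of freedom 85.6 to 598). The lowest value, 85.6, was that of shppp2r1a library 3 with scr. Between shppp2r1a libraries it was 186 (1 and 2), 148 (2 and 3) and 484 (1 and 3). With scr it was 598 for library 1 and 261 for library 2. The shppp2r1a libraries thus did not form a group apart from scr by this measure. Reference sequences came from GENCODE M21 and RefSeq, aligned globally with Biopython 1.88 (match 1, gap opening 6). All 10 members matched by symbol.

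The members, marker lists, sequence groups and comparisons were chosen with earlier results of these data known. Named were all members, the 3 highest other rows beginning with Defa, Lyz1, Mmp7, Ang4, Pla2g2a, Itln1 and Mptx2, the 2 largest rises and falls of each Paneth list, the strain and segment genes, and the 5 genes nearest in profile. Some named items are not reported here. H2-Ea had no row under that symbol.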

Additional observations from a re-analysis of the deposited data

How the results depend on the processing

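The number of genes called by edgeR was 0 with TMM, RLE factors, library size alone and no filter, and limma on log2(FPKM + 1) also called 0. DESeq2 called 178, and leaving out one shppp2r1a library gave 0 to 1111 calls, the 1111 without library 3 and 161 without library 2. Among the 26 Paneth companion genes these numbers were 0 in edgeR, 1 in DESeq2, and 0 to 4 with a library left out. Library size alone moved the median log2 fold change of all genes to 0.40, against 0.06 with TMM. The ratio of the summed members to scr was 1.22 to 1.5 under other units, 1.57 over all alpha-defensin rows, 0.851 per Lyz1 and 0.877 to 1.78 with a library left out. That of the Defa2, Defa20, Defa21 and Defa22 sum was 19.1 to 37.2 under other units or members, and 17.7 to 42.3 with a library left out. The alternatives per Lyz1, over all alpha-defensin rows and for sequence groups and single members were chosen after seeing the data. No sum could be made of members with whole counts in every library, since there were none. The share of Defa24 in shppp2r1a libraries, 36.0% on average, was 26.9% of all alpha-defensin rows, and that of Defa17 in scr was 34.0% by expected counts, 32.9% of rows beginning with Defa and 27.9% of all alpha-defensin rows, against 34.5%. With a library left out, log2 values changed sign for Defa24 (-0.04 to 0.89) and Defa26 (-0.65 to 0.08), and for Itln1 (-0.50 to 0.41), Lyz1 (-0.08 to 0.74) and Mptx2 (-0.13 to 0.74), in each case without library 2 except for Defa26 (library 1). The cause was not tested. No paired analysis was possible because there was 1 control library. Depth did not limit the members, whose division among copies has no stated error.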
